A study of Homo sapiens with 30 samples.

Results

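The nuclear genes whose proteins copy and transcribe mitochondrial DNA were followed by RNA sequencing of 3 human cell lines of acute myeloid leukemia (AML), in 30 libraries. The 10 genes were TFAM, TFB1M, TFB2M, POLRMT, TEFM, MTERF3, POLG, POLG2, TWNK and SSBP1. They were chosen by name for this role, not by their values, and all 10 passed the filter on low counts in both series, among 17542 tested genes of 60675 in the overexpression series and 14490 of 58051 in the knockout series. The overexpression series holds MV4-11 and Molm-14 cells infected with a lentivirus that has an EF1α promoter, a GFP marker and sequence of the MIR1-2 host gene that yields miR-1 (miR-1 OE), or an empty vector with GFP alone (EV). The knockout series holds the same 2 lines and THP-1. Cells were infected with a lentiviral CRISPR/Cas9 construct that has a GFP marker and a single guide against MPC1 (MPC1 KO), or with a control. The paper calls that control a nontargeting empty vector, and it is also labelled EV here. It describes MV4-11 and Molm-14 as carrying an FLT3-ITD mutation and THP-1 as having normal FLT3. This status cannot be told apart from other differences of THP-1. MPC1 is part of the complex through which pyruvate enters the mitochondrial matrix. Each of the 10 groups had 3 libraries of total RNA depleted of ribosomal RNA. The labels do not say whether replicates were separate infections, clones or cultures, so p-values measure the spread between these libraries, which may be technical.

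Mitochondria keep a small circular genome that encodes core subunits of the respiratory chain, and the proteins that copy and read it are made from nuclear genes. Transcription needs the mitochondrial RNA polymerase POLRMT, the packaging and initiation factor TFAM, the promoter-melting factor TFB2M and the elongation factor TEFM. TFB1M methylates the ribosomal RNA of the mitochondrial small subunit, and MTERF3 is a negative regulator of mitochondrial transcription. Replication needs the DNA polymerase POLG with its accessory subunit POLG2, the helicase TWNK and the single-strand binding protein SSBP1. AML cells are known for a high reliance on mitochondrial respiration.

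Of the 10 genes, 6 differed between MV4-11 and Molm-14 in each series, a share near the 64.8% and 61.7% of all tested genes that differed in the overexpression and knockout series. TFAM, TFB1M, TFB2M, TEFM and TWNK were lower in MV4-11 than in Molm-14 in both series, and TFAM and TWNK were lowest in THP-1. The mRNAs of the mitochondrial genome did not follow this order. miR-1 OE changed none of the 10 genes past a 5% false discovery rate (FDR), and MPC1 KO lowered TWNK in MV4-11, where mitochondrial mRNAs were also lower. In THP-1, 0 of the 10 genes passed with MPC1 KO in the fit of the whole series. SSBP1 passed for a higher level only with THP-1 fitted alone and same-numbered libraries paired, where 988 of 14490 genes passed. The labels name no such pairs, and this fit was chosen after the values were seen.

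The vector's product and the genes' own sequences were set beside these values. Mature miR-1-3p, as RefSeq lists it for MIR1-1 on GRCh38.p14 at chr20:62554351-62554372, plus strand, is shown first because a direct target would carry a match to its seed, bases 2 to 8, in capitals.
miR-1-3p: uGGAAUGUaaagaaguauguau
The letters ACATTCC, which pair with the seed, and the weaker matches CATTCCA and CATTCC were searched on the sense strand of the canonical 3′ UTR of each of the 10 genes in GENCODE release 44. None of the 10 held any of them, over UTRs from 38 bases in POLG2 to 4146 bases in TFAM. Of 12563 genes with a 3′ UTR, 13.08% held ACATTCC. The absence says only that these letters are not in these UTRs.

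Promoters of the genes are shown next. Their letters are those of the reference genome and not of the lines, so they show no difference between lines. RefSeq's table holds a promoter, from 250 bases before to 50 after the start, for 8 of the 10 genes, and none for TWNK and MTERF3. A pair of motifs was searched on both strands. The NRF1-type motif GCGCANGCG, read CGCNTGCGC on the other strand, is the element bound by nuclear respiratory factor 1, a known activator of genes for mitochondrial proteins. The ETS-type motif CCGGAAGT, read ACTTCCGG on the other strand, is the element of the GABP factor, named NRF-2 in this field.
TFAM, NRF1-type in capitals: cgctctcccgCGCCTGCGCcaattccgcc
TFB1M, NRF1-type in capitals: gcaggacttaGCGCATGCGctctcagcac
TFB2M, NRF1-type in capitals: ctccgctgttCGCATGCGCaggctctagt
POLRMT, NRF1-type in capitals: ggcggcgcggGCGCATGCGcaggcgcggg
POLG2, NRF1-type in capitals: acctccgttgCGCCTGCGCcgtggcctct
TEFM, ETS-type in capitals: gcacgcaggaaCCGGAAGTcaatggaggaa
SSBP1, ETS-type in capitals: ttccctgtgcgCCGGAAGTgatcccctgcg
The NRF1-type motif was found in 5 of the 8 genes, against 7.518% of 35116 promoters, and the ETS-type motif in 3 of the 8, against 4.138%. POLRMT held both, with overlapping copies of the NRF1-type motif, and POLG held neither. On GRCh38.p14 the stretches shown lie at chr10:58385338-58385366, plus strand, for TFAM and chr6:155314598-155314626, minus strand, for TFB1M. Those of TFB2M and POLRMT lie at chr1:246566259-246566287 and chr19:633543-633571, both minus strand. Those of POLG2 and TEFM lie at chr17:64497049-64497077 and chr17:30906226-30906255, both minus strand, and that of SSBP1 at chr7:141738352-141738381, plus strand. A match is a run of letters and not a measured binding site. The transcript of NRF1 itself, named after its values were seen, differed between EV lines by log2 fold changes from -0.11 to -0.01, with adjusted p-values of at least 0.446 (edgeR). Differences of GABPA, of the GABP factor, are given further below.

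Library totals ran from 15543301 to 20939985 counts with miR-1 and its EV, and from 5339360 to 9106478 counts with MPC1 KO and its EV, and every library held 57 or more reads of each of the 10 genes. MPC1 fell in all 3 KO lines, to 44.1% of its EV level in MV4-11, 48.5% in Molm-14 and 55.8% in THP-1, and MIR133A1HG, the host transcript of the vector's insert, was at 0 counts in every EV library and at 34 to 73 counts in the OE libraries. The myeloid markers PTPRC, CD33 and SPI1 were at 24.3 CPM or more in every library, CD14 was at most 4.01 CPM, MEIS1 reached 0 in the knockout series, and 9 of 10 markers of other cell types stayed at or below 1.99 CPM, with PECAM1 the exception at 45.6 to 288 CPM. Libraries that stood apart were MV4-11 OE replicate 1, whose 15 interferon-stimulated genes summed to 853 CPM against 176 and 179 CPM in the other OE replicates, and MV4-11 EV replicate 3 of that series, at 301 CPM against 170.0 and 172 CPM. In the knockout series, MV4-11 EV replicates 2 and 3 had the highest sums of mitochondrial mRNA, 3724 and 3296 CPM. EV replicate 1 was at 2027 CPM, within the range of the other lines' EV libraries. All mitochondrial genes took 0.452% and 0.392% of replicates 2 and 3, and their mRNAs 0.388% and 0.343%. In EV replicate 1 these shares were 0.211% and 0.206%. In bulk RNA, fewer cells of a type and less RNA per cell cannot be told apart.

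Levels are given as CPM, the counts of a gene relative to its library's total, scaled between the libraries of a series by the TMM method, and levels of different genes as CPM per kilobase (kb) of exon. The exon length is the union of all annotated exons of a gene, 4975 bases for SSBP1. It can exceed the length of the transcripts made, so the order of genes below holds for this scale only. In Molm-14 EV of the knockout series, TFAM at 71.4 ± 2.75 and TFB2M at 70.2 ± 6.95 CPM per kb (SD, n = 3) were the highest of the 10 genes on this scale, and their ranges overlapped. MTERF3 at 34.0 ± 2.96 and SSBP1 at 32.3 ± 3.29 CPM per kb came next and also did not differ beyond their spread. TWNK was at 18.9 ± 1.71, TFB1M at 15.5 ± 0.252, TEFM at 12.04 ± 1.89 and POLG at 12.04 ± 0.422 CPM per kb. POLRMT at 9.63 ± 0.986 and POLG2 at 7.02 ± 0.530 CPM per kb were the lowest. In THP-1 EV the order changed: TFB2M led at 39.5 ± 2.73, followed by MTERF3 at 31.9 ± 3.66, while TFAM was at 13.2 ± 0.927 and TWNK, the lowest, at 2.36 ± 0.478 CPM per kb.

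**Figure D1:**
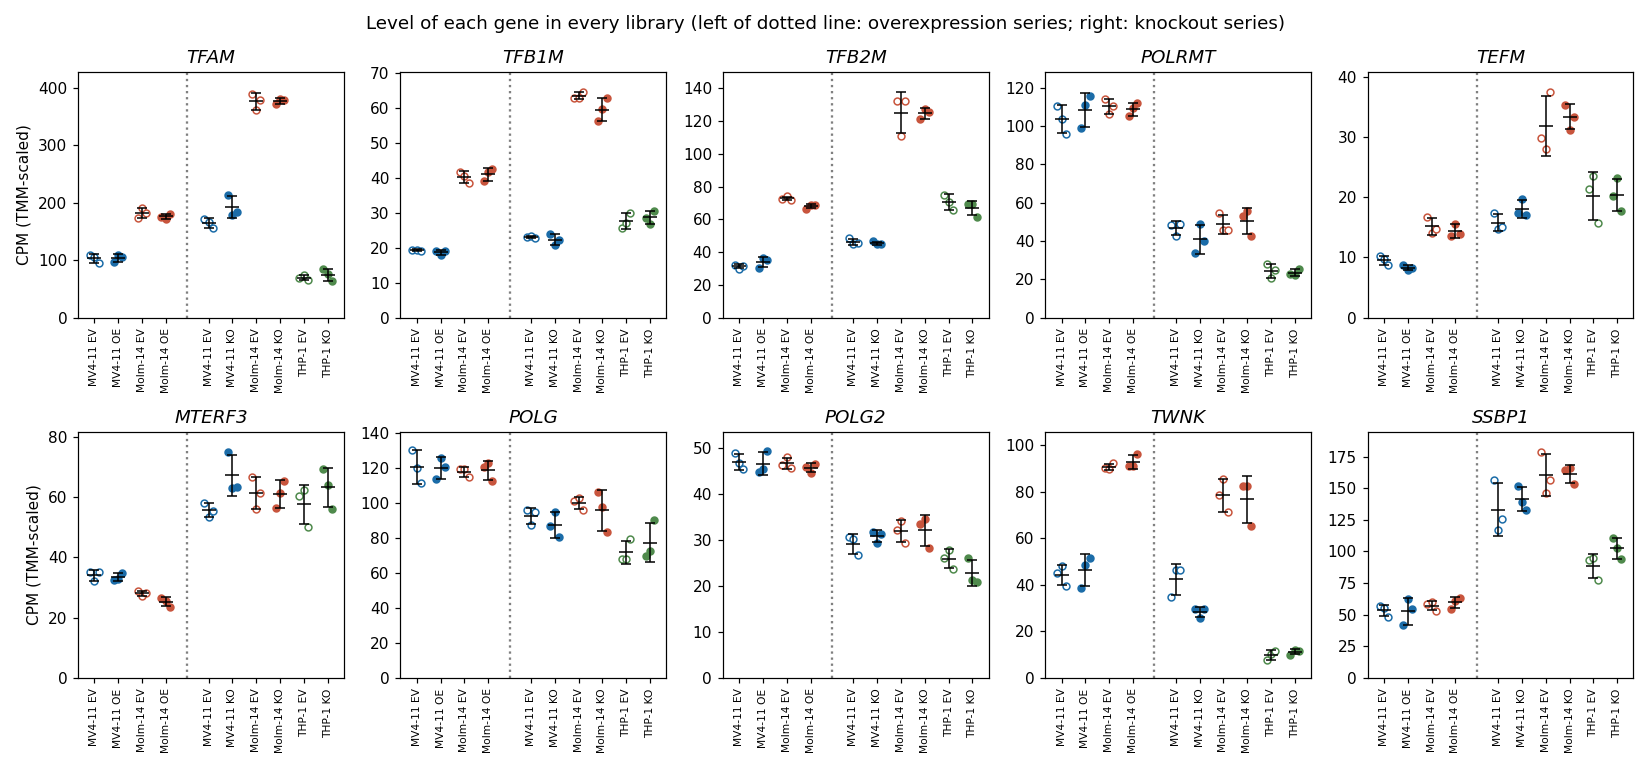
Level of each of the 10 genes in CPM (vertical axes, from 0) in every library, with open points for EV, filled points for OE or KO, and bars for the mean ± SD of 3 libraries; the overexpression series is left of the dotted line and the knockout series right of it. TFAM, TFB1M, TFB2M, TEFM and TWNK stepped between lines in both series while POLG2 stayed nearly level, and the filled points lay near the open ones except for TWNK in MV4-11.

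TFAM coats mitochondrial DNA and its dose is known to set the number of genomes a cell keeps. In the overexpression series, the MV4-11 EV libraries held 109.9, 104.8 and 95.1 CPM and the Molm-14 EV libraries 173.6, 191.2 and 182.0 CPM. The knockout series gave 172.1, 166.7 and 155.4 CPM in MV4-11 EV, 389.8, 361.2 and 379.9 CPM in Molm-14 EV, and 68.8, 74.8 and 65.1 CPM in THP-1 EV. No library of any line overlapped with another line of its series. The log2 fold change of MV4-11 against Molm-14 was -0.82 ± 0.0597 (SE, adjusted p = 2.508e-10) and -1.19 ± 0.0875 (adjusted p = 2.876e-12) in the overexpression and knockout series, and that of THP-1 against Molm-14 was -2.44 ± 0.0933 (adjusted p = 1.936e-18, all edgeR). TFAM in THP-1 EV was at 18.5% of its Molm-14 level. Processed pseudogenes of TFAM and POLRMT are annotated, and reads could be split between them and the genes.

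TWNK unwinds mitochondrial DNA ahead of the polymerase. Its levels were 44.8, 48.1 and 39.5 CPM in MV4-11 EV and 90.2, 89.7 and 92.1 CPM in Molm-14 EV of the overexpression series. The knockout series gave 34.6, 46.3 and 46.1 CPM in MV4-11 EV, 78.7, 85.2 and 71.1 CPM in Molm-14 EV, and 7.58, 10.3 and 11.4 CPM in THP-1 EV. The lines did not overlap, and the step to THP-1 was the largest seen for any of the 10 genes: the log2 fold change was -2.13 ± 0.152 against MV4-11 (adjusted p = 1.562e-12) and -3.02 ± 0.148 against Molm-14 (adjusted p = 3.902e-16, both edgeR), which left THP-1 at 12.3% of the Molm-14 level. Of the exon bases of TWNK, 3.6% are shared with MRPL43 on the opposite strand. MRPL43 differed the same way, by -2.07 ± 0.129 between THP-1 and Molm-14.

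The paralogs TFB1M and TFB2M, which descend from a bacterial RNA methyltransferase, differed in step. TFB2M was at 32.4, 29.9 and 31.8 CPM in MV4-11 EV against 72.3, 74.0 and 72.0 CPM in Molm-14 EV of the overexpression series. With the knockout series' EV it was at 48.4, 44.7 and 45.5 CPM in MV4-11 EV, 132.5, 110.9 and 132.1 CPM in Molm-14 EV and 75.1, 70.9 and 65.4 CPM in THP-1 EV. TFB1M was at 23.1, 23.4 and 22.7 CPM in MV4-11 EV, 62.9, 63.0 and 64.7 CPM in Molm-14 EV and 25.5, 27.2 and 30.1 CPM in THP-1 EV of the knockout series. For both genes THP-1 lay between the other lines, nearer to MV4-11. MV4-11 was lower than Molm-14 by log2 fold changes of -1.06 ± 0.0721 and -1.46 ± 0.0954 for TFB1M and -1.22 ± 0.0675 and -1.43 ± 0.0875 for TFB2M in the overexpression and knockout series, with adjusted p-values of at most 8.066e-11 (edgeR). THP-1 was higher than MV4-11 by 0.61 ± 0.0893 for TFB2M (adjusted p = 1.029e-06) and by 0.25 ± 0.102 for TFB1M (adjusted p = 0.0296, edgeR), and the call for TFB1M was lost without a filter on low counts (adjusted p = 0.0792), with only the compared groups fitted (adjusted p = 0.0877) and without MV4-11 EV replicate 1 or 3 or THP-1 EV replicate 2 or 3 (adjusted p from 0.0505 to 0.135). TIAM2 shares 30.7% of the exon bases of TFB1M on the opposite strand, so the counts of the pair may be mixed. TIAM2 was 1.47 ± 0.252 higher in THP-1 than in MV4-11 on the log2 scale.

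TEFM, which keeps POLRMT on its template, was at 29.9, 28.0 and 37.5 CPM in Molm-14 EV, 17.4, 14.8 and 15.1 CPM in MV4-11 EV and 21.4, 23.5 and 15.8 CPM in THP-1 EV of the knockout series. Molm-14 was highest with no overlap, and MV4-11 and THP-1 overlapped. MV4-11 was lower than Molm-14 by -0.67 ± 0.116 and -1.01 ± 0.141 in the overexpression and knockout series (adjusted p = 3.824e-05 and 6.341e-07, edgeR). The higher level in THP-1 than in MV4-11, 0.36 ± 0.148 (adjusted p = 0.0330), passed the test but not with only the compared groups fitted (adjusted p = 0.0571), nor without MV4-11 EV replicate 2 or 3 or THP-1 EV replicate 1 or 2 (adjusted p from 0.0860 to 0.193). A long noncoding RNA gene on the opposite strand shares 20.5% of the exon bases of TEFM, so the counts of the pair may be mixed. In MV4-11 against Molm-14 that gene was at -0.47 ± 0.244 and -0.98 ± 0.247 in the overexpression and knockout series (adjusted p = 0.101 and 0.00116, edgeR).

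The polymerases and SSBP1 followed another pattern, with little difference between MV4-11 and Molm-14 and lower levels in THP-1. POLRMT was at 48.4, 42.3 and 48.9 CPM in MV4-11 EV, 54.5, 45.8 and 45.9 CPM in Molm-14 EV and 28.1, 20.6 and 24.6 CPM in THP-1 EV of the knockout series. It differed between MV4-11 and Molm-14 by -0.06 ± 0.126 (adjusted p = 0.693) and -0.09 ± 0.0629 (adjusted p = 0.221) in the knockout and overexpression series, and THP-1 was lower than MV4-11 by -0.92 ± 0.135 (adjusted p = 1.023e-06, edgeR). POLG was at 95.5, 87.2 and 94.5 CPM in MV4-11 EV, 100.9, 102.4 and 95.7 CPM in Molm-14 EV and 67.6, 68.0 and 79.0 CPM in THP-1 EV, lower in THP-1 than in Molm-14 by -0.48 ± 0.103 (adjusted p = 0.000167, edgeR). SSBP1 was at 156.6, 117.0 and 126.0 CPM in MV4-11 EV, 178.4, 146.3 and 156.9 CPM in Molm-14 EV and 93.4, 94.9 and 77.7 CPM in THP-1 EV.

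THP-1 lay below both other lines in SSBP1, by -0.59 ± 0.104 against MV4-11 and -0.85 ± 0.104 against Molm-14 (adjusted p = 1.783e-05 and 4.423e-08, edgeR). SSBP1 in MV4-11 against Molm-14 was called in the knockout series alone (-0.27 ± 0.101, adjusted p = 0.0252, against -0.09 ± 0.122, adjusted p = 0.525, in the overexpression series). That call was lost when only the compared groups were fitted (adjusted p = 0.0755) and without MV4-11 EV replicate 2 or 3 or Molm-14 EV replicate 1 (adjusted p from 0.0974 to 0.158).

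POLG2, the accessory subunit that tightens the grip of POLG on DNA, differed least of the 10 between MV4-11 and Molm-14 in the overexpression series, with a log2 fold change of 0.01 ± 0.0622 (adjusted p = 0.911). It was lower in THP-1 than in Molm-14 by -0.30 ± 0.114 (adjusted p = 0.0227, edgeR), a call that DESeq2 did not make (adjusted p = 0.0897) and that other size factors (adjusted p = 0.0634), no filter on low counts (adjusted p = 0.0979) and leaving out Molm-14 EV replicate 2 or THP-1 EV replicate 3 (adjusted p = 0.102 and 0.0905) also ended. MTERF3 was higher in MV4-11 than in Molm-14 in the overexpression series, at 35.2, 32.0 and 35.1 against 28.7, 27.1 and 28.3 CPM (0.28 ± 0.0744, adjusted p = 0.00246, edgeR). Its knockout-series difference between these lines was -0.13 ± 0.103 (adjusted p = 0.273), and MTERF3 was the member nearest to level between THP-1 and Molm-14 (-0.08 ± 0.104, adjusted p = 0.489).

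These counts were read against all genes, because the lines differ widely. MV4-11 against Molm-14 in the overexpression series had 5 members lower and 1 higher, where 31.9% of all tested genes were lower and 32.9% higher. Among knockout-series EV libraries 6 were lower and 0 higher (0 also by DESeq2 and at an unadjusted p under 0.05), where 31.6% of all genes were lower and 30.1% higher. The median size of the members' log2 fold changes was 0.478 against 0.528 for all genes in the overexpression series and 0.579 against 0.536 in the knockout series. The 5 members lower in both series, whose libraries are separate, were TEFM, TFAM, TFB1M, TFB2M and TWNK. THP-1 against MV4-11 had 5 members lower and 3 higher, where 32.9% of all genes were lower and 34.6% higher, and the 3 fell to 1 with only the compared groups fitted, without MV4-11 EV replicate 3 or without THP-1 EV replicate 2. THP-1 against Molm-14 had 9 lower and 0 higher (0 also by DESeq2 and at an unadjusted p under 0.05), where 34.1% of all genes were lower and 35.5% higher, and the median log2 fold change of the 10 members was -0.84 against 0.02 for all genes. The 3 comparisons of the knockout series share their EV libraries.

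**Figure D2:**
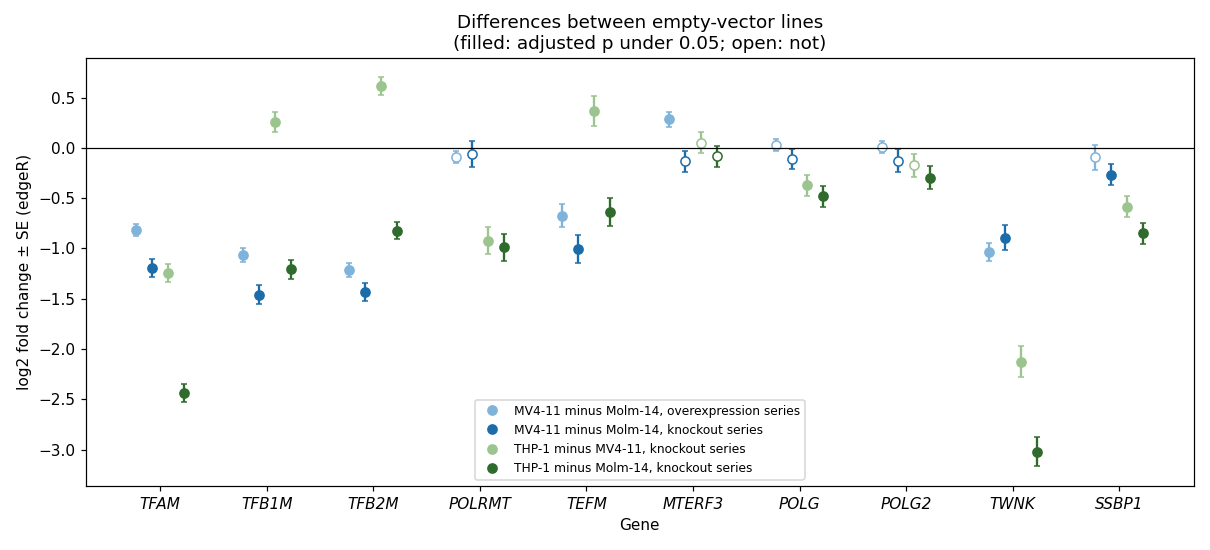
Log2 fold change ± SE (vertical axis, edgeR) of each gene between EV libraries of the lines, with filled points at an adjusted p under 0.05. TFAM, TFB1M, TFB2M, TEFM and TWNK lie below 0 in MV4-11 against Molm-14 in both series, and TWNK in THP-1 against Molm-14 lies lowest, at -3.02.

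The genes most like TFAM across the 30 libraries, by Pearson's r of log2 CPM centred within each series over 13627 genes, were DDX50 (r = 0.997), SLF2 (r = 0.993) and CHUK (r = 0.993), and all 3 lie on chromosome 10 with TFAM and TWNK. Those most like POLRMT were NCLN (r = 0.976), RBM42 (r = 0.975) and ARID3A (r = 0.971), all on chromosome 19 with POLRMT. Genes like POLG, on chromosome 15, included TONSL (r = 0.911) on chromosome 8 and NACC1 (r = 0.894) on chromosome 19. Libraries of a line share most of these differences, so such an r mainly ranks line means. Among members, r was 0.96 for TFAM with TWNK and 0.97 for TFB1M with TFB2M, which lie on chromosomes 6 and 1.

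Neighbouring genes were therefore measured, a choice made after the values were seen. TFAM lies at 58385345-58399220 and TWNK at 100987367-100994403 of chromosome 10, both on the plus strand (GRCh38, GENCODE release 44). In THP-1 against Molm-14, 90 of the 92 tested genes within 5 Mb of TWNK were lower, with a median log2 fold change of -1.66, and the 539 tested genes of chromosome 10 other than TWNK had a median of -1.32, against 0.02 for all genes. Of 15 neighbours of TFAM, 10 were lower, with a median of -1.12. In THP-1 against MV4-11, TFAM was at -1.24 while 7 of its 15 neighbours were higher and 8 lower, with a median of -0.37. In MV4-11 against Molm-14 of the knockout series the neighbours' medians were -0.54 for TWNK and -0.90 for TFAM. Both genes stood lower than their neighbours' median in THP-1 against Molm-14, by -3.02 against -1.66 and -2.44 against -1.12.

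POLRMT, at 617221-633537 on the minus strand of chromosome 19, stood near its surroundings: -0.92 in THP-1 against MV4-11, where its 128 neighbours had a median of -0.88. For TFB1M (155256134-155314493, minus strand of chromosome 6) and TFB2M (246540561-246566261, minus strand of chromosome 1), neighbours had medians of -0.49 and -0.55 in MV4-11 against Molm-14 of the knockout series, where the genes themselves were at -1.46 and -1.43. TEFM, at 30897336-30906238 on the minus strand of chromosome 17, went against its surroundings, at -1.01 where its 92 neighbours had a median of 0.26. The other members lie at 89305198-89334861 on chromosome 15 (POLG, minus strand), 64477785-64497054 on chromosome 17 (POLG2, minus strand), 141738334-141787922 on chromosome 7 (SSBP1, plus strand) and 96239398-96261610 on chromosome 8 (MTERF3, minus strand). Their neighbours' medians lay between 0.10 and 0.33 in THP-1 against Molm-14. The part of these surroundings in the members' levels was not tested.

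**Figure D3:**
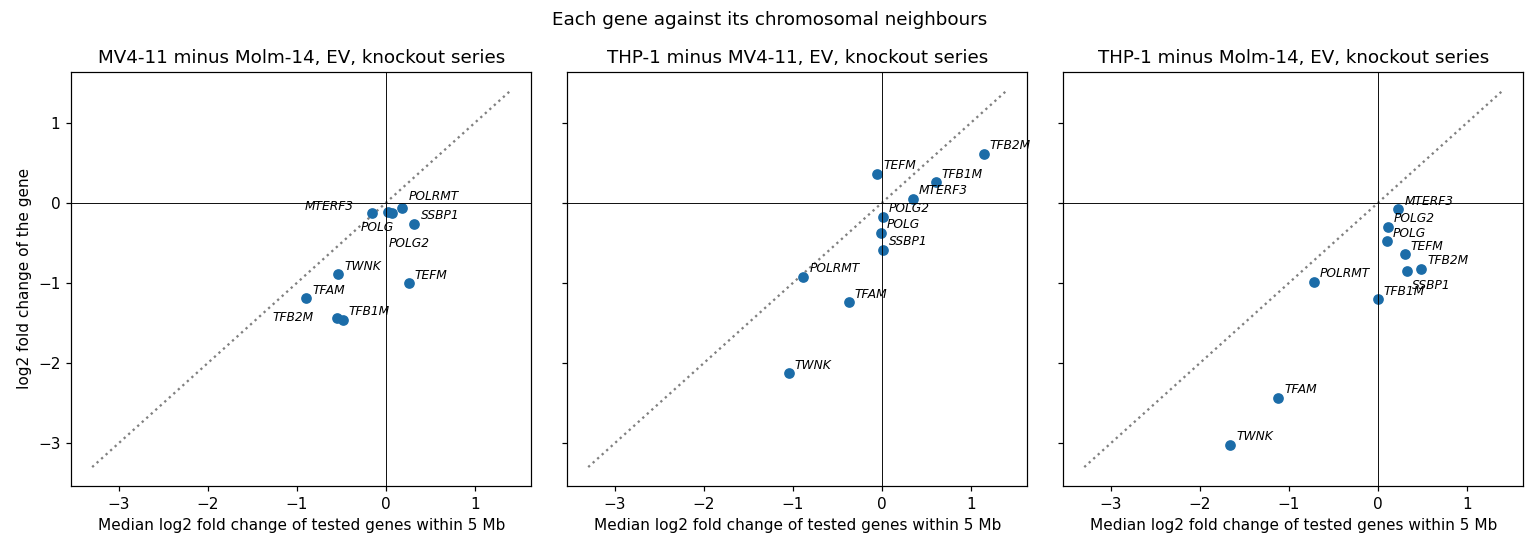
Log2 fold change of each of the 10 genes (vertical axis) against the median log2 fold change of tested genes within 5 Mb (horizontal axis) for the 3 EV line comparisons of the knockout series; the dotted line marks equal values. TFAM and TWNK lie low on both axes in THP-1 against Molm-14, and TEFM lies at -1.01 over a neighbours' median of 0.26 in MV4-11 against Molm-14.

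The mRNAs of the mitochondrial genome were set beside these levels. Their summed level was 2027, 3724 and 3296 CPM in MV4-11 EV, 1799.9, 2925 and 2113 CPM in Molm-14 EV and 1787, 2018 and 3023 CPM in THP-1 EV of the knockout series, and all 3 lines overlapped. MT-CO1 and MT-CO3 made up most of these sums. Their means were 954 and 1262 of 3015 CPM in MV4-11 EV and 718 and 914 of 2279 CPM in Molm-14 EV. In THP-1 EV they were 803 and 598 of 2276 CPM. THP-1 was at 0.999 times the Molm-14 sum (exact permutation test, two-sided, p = 0.9, n = 3 against 3, where the smallest possible p is 0.1) while its TFAM was at 0.185 times and its TWNK at 0.123 times. In the overexpression series the sums were 36653, 41159 and 33164 CPM in MV4-11 EV and 32033, 31921 and 28849 CPM in Molm-14 EV, so that MV4-11, with less TFAM and TWNK RNA, was higher without overlap (1.20 times, exact permutation p = 0.1, n = 3 against 3, the smallest possible).

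**Figure D4:**
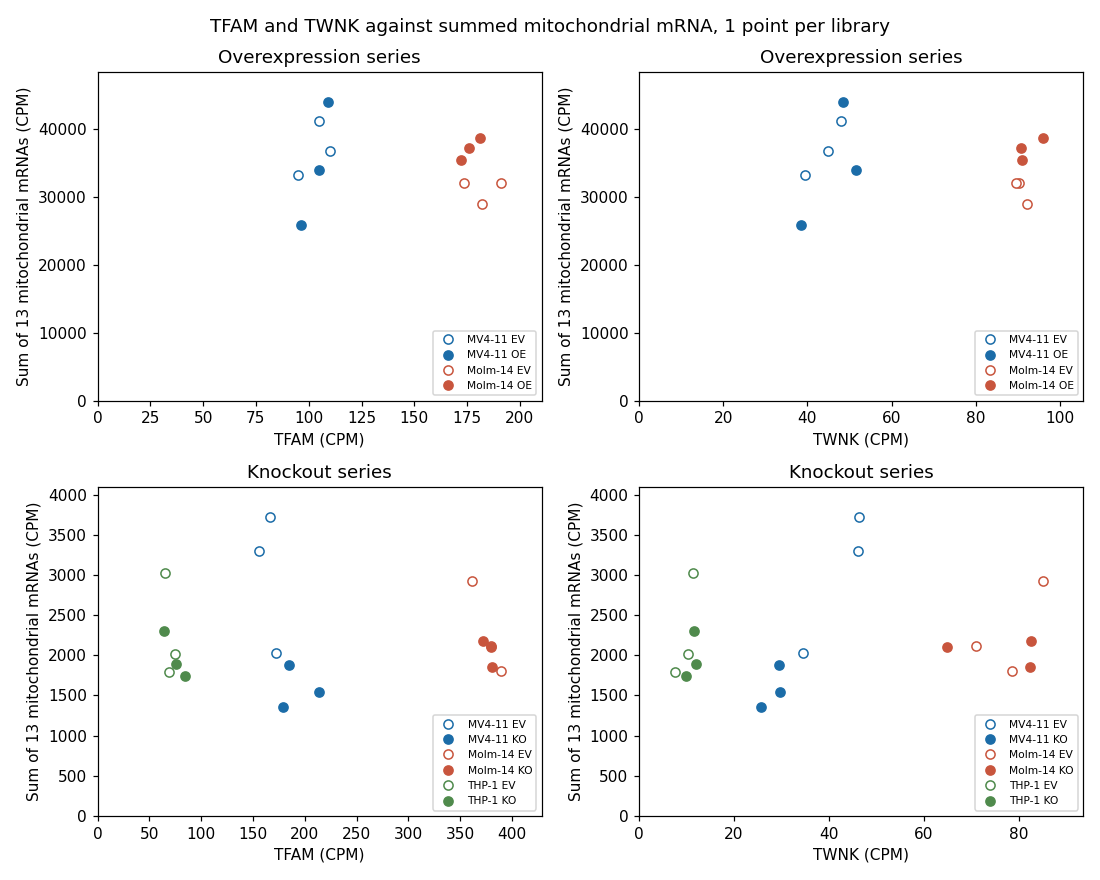
Summed level of 13 mitochondrial mRNAs (vertical axes, CPM) against the level of TFAM (left) or TWNK (right) in CPM, 1 point per library, open for EV and filled for OE or KO, with the overexpression series above and the knockout series below. THP-1 libraries, at the left of the lower panels, span 1745 to 3023 CPM of mitochondrial mRNA and Molm-14 libraries, at the right, 1799.9 to 2925 CPM.

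Single mitochondrial mRNAs differed between lines in either direction. In THP-1 against Molm-14, MT-ND4 (0.67 ± 0.222, adjusted p = 0.0154) and MT-ND4L (0.74 ± 0.265, adjusted p = 0.0216) were higher, and MT-ND6 (-0.91 ± 0.271, adjusted p = 0.00468) and MT-CO3 (-0.61 ± 0.245, adjusted p = 0.0394) lower. In THP-1 against MV4-11, MT-ND1 (0.62 ± 0.247, adjusted p = 0.0379) and MT-ND4 (0.60 ± 0.221, adjusted p = 0.0272) were higher and MT-CO3 (-1.08 ± 0.247, adjusted p = 0.00163) and MT-ND6 (-0.88 ± 0.271, adjusted p = 0.00628) lower, and MT-ND5 had the highest value (0.81 ± 0.345, adjusted p = 0.0525). MT-ND6 is the only one of the 13 mRNAs encoded on the light strand. It was also lower in MV4-11 than in Molm-14 in the overexpression series (-0.86 ± 0.204, adjusted p = 0.00536), where MT-CO1 (0.22 ± 0.0675, adjusted p = 0.0114) and MT-CYB (0.51 ± 0.188, adjusted p = 0.0417) were higher and MT-ND4 had the highest value (0.56 ± 0.255, adjusted p = 0.0856). Between the knockout series' EV libraries MT-CO2 was higher in MV4-11 than in Molm-14 (0.75 ± 0.285, adjusted p = 0.0371) and MT-ND1 had the lowest value (-0.54 ± 0.245, adjusted p = 0.0705, all edgeR). In MV4-11 against Molm-14, 3 and 1 of 13 passed in the overexpression and knockout series, where 64.8% and 61.7% of all genes passed. In THP-1, 4 of 13 passed against MV4-11 and 4 of 13 against Molm-14, where 67.5% and 69.6% of all genes passed. Of these 12 calls, 9 were lost under 1 or more of the alternative fits or left-out libraries. Those of MT-ND6 in MV4-11 against Molm-14 of the overexpression series, MT-ND6 in THP-1 against Molm-14 and MT-CO3 in THP-1 against MV4-11 passed under all of them. MT-CYB was lost in 7 alternatives (adjusted p from 0.0545 to 0.118) and MT-CO2 in 6 (adjusted p from 0.0822 to 0.187). In THP-1 against MV4-11, MT-ND1 and MT-ND4 were lost in 5 each (adjusted p up to 0.140 and 0.146), and MT-ND6 without MV4-11 EV replicate 1 (adjusted p = 0.136). In THP-1 against Molm-14, MT-CO3 was lost in 6 (adjusted p up to 0.175), MT-ND4L in 4 (adjusted p up to 0.105) and MT-ND4 in 3 (adjusted p up to 0.116), and MT-CO1 in MV4-11 against Molm-14 without MV4-11 EV replicate 2 (adjusted p = 0.0543). Mitochondrial genes took 2.72% to 4.34% of a library in the overexpression series but 0.140% to 0.452% of one in the knockout series, which bounds the depth behind these values, and copies of mitochondrial sequence in the nuclear genome could share their reads. The mix also differed. In MV4-11 EV, MT-ND1 was at 34.6 CPM and MT-CO3 at 1262 CPM in the knockout series, but at 2117 and 5452 CPM in the overexpression series. The reason was not tested.

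Genes of mitochondrial RNA processing, which cut, modify, stabilise or degrade the transcripts, were also measured, 24 in all. Of these, 14 were lower and 1 higher in MV4-11 than in Molm-14 in each series, where 31.9% and 31.6% of all genes were lower in the overexpression and knockout series. Against MV4-11, 16 were lower and 4 higher in THP-1, where 32.9% of all genes were lower, and against Molm-14, 20 were lower and 0 higher, where 34.1% of all genes were lower and the median log2 fold change was -0.63 against 0.02 for all genes. SUPV3L1, the helicase of the mitochondrial RNA degradosome, was at 44.2 ± 2.68 CPM in MV4-11 EV against 92.6 ± 2.30 CPM in Molm-14 EV of the overexpression series (SD, n = 3). Its knockout-series levels were 60.6 ± 2.53, 124 ± 1.32 and 24.9 ± 1.077 CPM in MV4-11, Molm-14 and THP-1 EV, a log2 fold change of -2.31 ± 0.0862 between THP-1 and Molm-14 (adjusted p = 1.131e-18, edgeR). FASTKD3, of a family that stabilises mitochondrial mRNAs, differed by -1.21 ± 0.0835 and -1.41 ± 0.10 between MV4-11 and Molm-14 in the overexpression and knockout series and by -1.77 ± 0.104 between THP-1 and Molm-14. The exonuclease REXO2 was lower in MV4-11 by -1.33 ± 0.107 and -1.02 ± 0.120. In THP-1, the ribose methyltransferase MRM3 was lower by -1.36 ± 0.133 and -1.67 ± 0.131 against MV4-11 and Molm-14, and the tRNA 3′-end nuclease ELAC2 by -1.60 ± 0.0867 against MV4-11. Chromosomal neighbours of these genes were not measured, so the part of their surroundings in these differences was not tested.

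Of 22 further genes of mitochondrial DNA maintenance, 10 were higher and 4 lower in MV4-11 than in Molm-14 in the overexpression series, and 5 higher and 4 lower in the knockout series. Of all genes, 32.9% were higher and 31.9% lower in the former and 30.1% higher and 31.6% lower in the latter. The genes with the largest differences act on nucleotide supply and were higher in MV4-11: TYMP, thymidine phosphorylase, by 1.59 ± 0.0954 and 1.35 ± 0.148, RRM2B, the p53-inducible subunit of ribonucleotide reductase, by 0.71 ± 0.0618 and 1.19 ± 0.0863, and TK2, mitochondrial thymidine kinase, by 0.63 ± 0.0766 and 0.85 ± 0.0893. In THP-1, 16 of the 22 were lower and 0 higher than in MV4-11, where 32.9% of all genes were lower, and 16 lower and 1 higher than in Molm-14, where 34.1% of all genes were lower, with a median of -0.47 against 0.02 for all genes. ATAD3B, of mitochondrial nucleoids, was at 16.6 ± 2.39 CPM in THP-1 EV against 60.3 ± 7.75 CPM in MV4-11 EV (-1.86 ± 0.130), and TYMP and TK2 were lower than in MV4-11 by -1.38 ± 0.15 and -1.29 ± 0.0929. Against Molm-14, the topoisomerase TOP3A (-1.29 ± 0.117), the nuclease and helicase DNA2 (-1.13 ± 0.0972) and the protease LONP1 (-1.04 ± 0.0970) were lower, with adjusted p-values of at most 3.079e-10 (edgeR). Neighbours were not measured for these genes either, and the part of their surroundings was not tested.

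Among 10 regulators of mitochondrial biogenesis, of which 9 were tested in the knockout series, 7 were lower and 0 higher in MV4-11 than in Molm-14 in the overexpression series and 2 lower and 0 higher in the knockout series, against 31.9% and 31.6% of all genes lower. In THP-1, 3 were lower and 1 higher than in MV4-11, and 4 lower and 0 higher than in Molm-14, against 32.9% and 34.1% of all genes lower. PPRC1, a coactivator of the PGC-1 family, went with TFAM: it was lower in MV4-11 than in Molm-14 by -0.69 ± 0.0508 and -0.91 ± 0.168 in the overexpression and knockout series, and lower in THP-1 by -1.14 ± 0.192 against MV4-11 and -2.05 ± 0.186 against Molm-14. PPRC1 also lies on chromosome 10, at 102132994-102150333. MYC was at 152.8 ± 8.04 CPM in THP-1 EV against 407 ± 22.4 CPM in MV4-11 EV and 409 ± 17.5 CPM in Molm-14 EV, a log2 fold change of -1.41 ± 0.0811 against MV4-11 (adjusted p = 1.391e-14), and in the overexpression series it was lower in MV4-11 than in Molm-14 by -0.33 ± 0.0478. GABPA, a subunit of the GABP factor, was lower than in Molm-14 in MV4-11 (-0.36 ± 0.106) and THP-1 (-0.39 ± 0.107), and ESRRA was lower in THP-1 than in MV4-11 (-0.67 ± 0.174). PPARGC1A was near the detection floor, at 0.0322 ± 0.0557 CPM in MV4-11 EV and 0.619 ± 0.275 CPM in Molm-14 EV of the overexpression series.

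The overexpression series asks whether miR-1 changes the AML transcriptome, and here whether it reaches this machinery. None of the 10 genes passed the test in either line. In MV4-11, TFAM was at 96.5, 109.2 and 105.0 CPM with miR-1 OE against 109.9, 104.8 and 95.1 CPM with EV, and POLRMT at 98.6, 110.8 and 115.8 against 110.6, 103.8 and 96.0 CPM. TWNK was at 38.4, 48.5 and 51.6 against 44.8, 48.1 and 39.5 CPM. The groups overlapped for all 10 genes in MV4-11, where 9.17% of all genes did not overlap. The median size of the 10 log2 fold changes was 0.039, against 0.0853 for all genes. The widest differences were -0.20 ± 0.120 for TEFM (adjusted p = 0.961) and 0.12 ± 0.0693 for TFB2M (adjusted p = 0.935).

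In MV4-11, 0 of 10 members passed the test (0 also by DESeq2 and at an unadjusted p under 0.05), where 0.177% of all genes passed it. In Molm-14 0 of 10 passed (0 also by DESeq2 and at an unadjusted p under 0.05), where 0.0057% of all genes passed. MTERF3, at 26.6, 25.5 and 23.6 CPM with miR-1 OE against 28.7, 27.1 and 28.3 CPM with EV, and TFB2M, at 66.5, 68.6 and 69.1 against 72.3, 74.0 and 72.0 CPM, were the 2 of 10 genes whose groups did not overlap in Molm-14, where 14.9% of all genes did not. Their log2 fold changes were -0.15 ± 0.0759 and -0.10 ± 0.0646, both at an adjusted p of 1 (edgeR). TFAM in Molm-14 differed by -0.05, with a 95% interval from -0.16 to 0.07, and the median size of the 10 log2 fold changes was 0.0401, against 0.0816 for all genes. The effect of miR-1 OE did not differ between the lines for any member past the test, at 0 of 10 (0 also by DESeq2, and 1 at an unadjusted p under 0.05), where 0.0456% of all genes passed. At that unadjusted p, 5.30% of all genes passed. Without both libraries with high interferon-stimulated genes, a choice made after the values were seen, 0 of 10 members passed in MV4-11.

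The summed mitochondrial mRNA with miR-1 OE was 25820.4, 43931 and 33959.7 CPM in MV4-11, overlapping with EV (0.935 times, exact permutation p = 0.7, n = 3 against 3). The lowest value was that of MV4-11 OE replicate 1, the library highest in interferon-stimulated genes, which also had the lowest SSBP1 level of the series, 41.4 CPM. In Molm-14 the OE libraries, at 37065, 35443 and 38536 CPM, all lay above the EV libraries, at 1.20 times their mean (exact permutation p = 0.1, n = 3 against 3, the smallest possible). No single mitochondrial mRNA passed the test in either line: 0 of 13 in MV4-11 (0 also by DESeq2 and at an unadjusted p under 0.05) and 0 of 13 in Molm-14 (0 by DESeq2 and 0 at an unadjusted p under 0.05 in edgeR). With the Molm-14 libraries fitted alone 2 of the 13 passed, MT-ND4L (0.19, adjusted p = 0.0381) and MT-CO3 (0.33, adjusted p = 0.00124, edgeR). In that fit 220 of all 17542 genes passed, against 1 in the fit of the whole series. The value was negative for 12 of 13 in MV4-11 and positive for 12 of 13 in Molm-14, with medians of -0.14 and 0.34 against 0.01 and 0.00 for all genes. Values ran from -0.26 ± 0.365 (MT-ATP8) to 0.11 ± 0.205 (MT-ND6) in MV4-11 and from -0.13 ± 0.201 (MT-ND6) to 0.51 ± 0.348 (MT-ND5) in Molm-14. Among the 22 maintenance, 24 RNA processing and 10 regulator genes, 0 passed in either line (0 by edgeR, with 1 maintenance gene and 1 RNA processing gene at an unadjusted p under 0.05 in MV4-11 and 0 in Molm-14). Of all genes, 5.90% and 4.38% were at that p in MV4-11 and Molm-14.

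**Figure D5:**
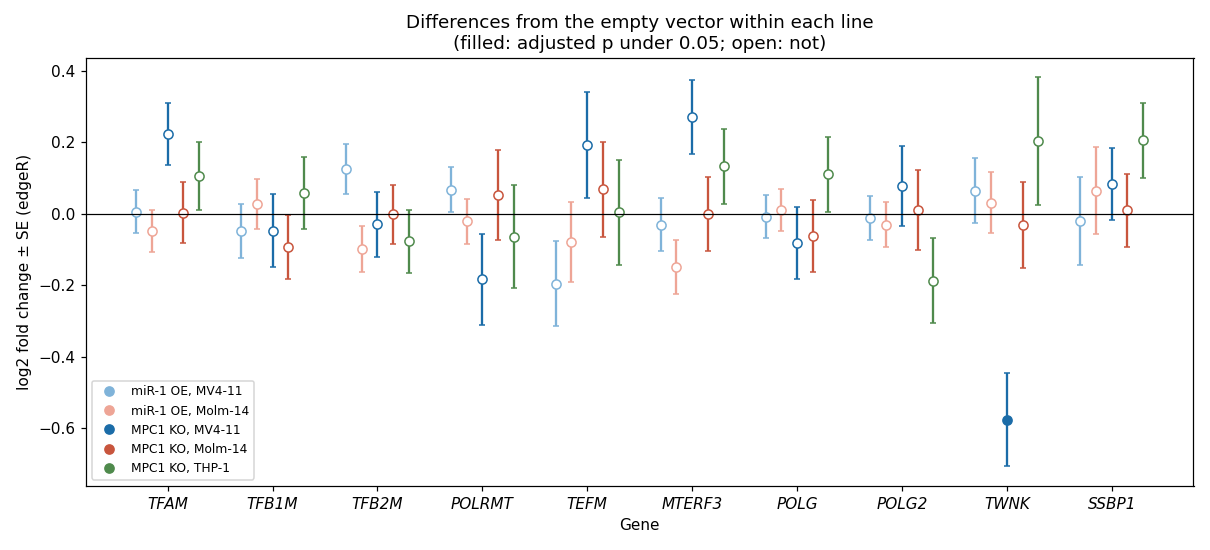
Log2 fold change ± SE (vertical axis, edgeR) of each gene in miR-1 OE or MPC1 KO against EV of the same line and series, 3 libraries per group, with the filled point at an adjusted p under 0.05. TWNK in MV4-11 MPC1 KO, at -0.58, is the filled point, and the others lie between -0.20 and 0.27.

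The knockout series asks what loss of the pyruvate carrier does to the cells. In MV4-11, TWNK fell: the KO libraries held 29.7, 25.7 and 29.5 CPM and the EV libraries 34.6, 46.3 and 46.1 CPM, with no overlap. The log2 fold change was -0.58 ± 0.130 (adjusted p = 0.0115, edgeR), a fall to 67.1% of the EV level. TWNK was the only member past the test, 1 of 10 where 5.41% of all genes passed, so the share of members is near that of all genes. The neighbours of TWNK did not share the fall, with a median of -0.02 over 92 genes, and MRPL43, which overlaps TWNK, was at 0.18 ± 0.119 (adjusted p = 0.385).

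The call on TWNK depended on the libraries kept, while its log2 fold change stayed between -0.71 and -0.50. The call was lost without MV4-11 EV replicate 2 (-0.50, adjusted p = 0.0614), EV replicate 3 (-0.51, adjusted p = 0.0919) or KO replicate 2 (-0.51, adjusted p = 0.0601). It was stronger without EV replicate 1 (-0.71, adjusted p = 0.00109, all edgeR), the MV4-11 EV library lowest in mitochondrial mRNA. The number of all genes called moved alike, from 784 to 289, 137 and 339 in those fits, in that order, and to 1413 without EV replicate 1.

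TFAM and MTERF3 were higher in MV4-11 KO without overlap but missed the test. TFAM was at 213.9, 178.8 and 184.5 CPM in KO against 172.1, 166.7 and 155.4 CPM in EV (0.22 ± 0.0875, adjusted p = 0.132), and MTERF3 at 75.1, 63.2 and 63.5 against 58.2, 53.4 and 55.4 CPM (0.27 ± 0.103, adjusted p = 0.120, edgeR). Their neighbours within 5 Mb had medians of 0.17 (13 of 15 higher) for TFAM and 0.15 (35 of 49 higher) for MTERF3. TWNK, TFAM and MTERF3 were the 3 of 10 genes whose groups did not overlap, where 24.1% of all genes did not. The other members lay between -0.18 ± 0.127 (POLRMT) and 0.19 ± 0.148 (TEFM), and the median size of the 10 log2 fold changes was 0.133, against 0.181 for all genes.

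In Molm-14 and THP-1 the members had small differences from EV, with a median size of the log2 fold change of 0.0211 in Molm-14 and 0.108 in THP-1, against 0.121 and 0.126 for all genes. TWNK was at 82.5, 82.4 and 65.0 CPM in Molm-14 KO against 78.7, 85.2 and 71.1 CPM in EV (-0.03 ± 0.119, adjusted p = 0.988), and at 9.87, 11.9 and 11.6 CPM in THP-1 KO against 7.58, 10.3 and 11.4 CPM in EV (0.20 ± 0.179, adjusted p = 0.798, edgeR). In both lines the groups overlapped. In Molm-14 0 of 10 passed the test (0 also by DESeq2 and at an unadjusted p under 0.05), where 2.4% of all genes passed, and TFB1M was the 1 gene whose groups did not overlap (56.2, 59.7 and 62.8 against 62.9, 63.0 and 64.7 CPM), where 16.4% of all genes did not.

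In THP-1 0 of 10 passed (0 also by DESeq2 and at an unadjusted p under 0.05), where 0.0897% of all genes passed, and 0 of 10 did not overlap, where 13.6% of all genes did not. THP-1 libraries of the same number deviated together. With the replicate number as a block and the THP-1 libraries fitted alone, a choice made after the values were seen, SSBP1 was higher in KO (0.20 ± 0.0639, adjusted p = 0.0471), the 1 of 10 members that passed, where 988 of 14490 genes passed. SSBP1 was at 110.8, 102.8 and 93.7 CPM in KO and 93.4, 94.9 and 77.7 CPM in EV.

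Whether the fall of TWNK differed between lines was tested directly. The MV4-11 effect minus the Molm-14 effect was -0.54 ± 0.176 (adjusted p = 0.126) and minus the THP-1 effect -0.78 ± 0.221 (adjusted p = 0.194, edgeR). Neither passed the test, so a difference between lines was not shown. Across the 10 members, 0 passed for MV4-11 minus Molm-14 (0 also by DESeq2, and 1 at an unadjusted p under 0.05), where 1.48% of all genes passed, and 0 for MV4-11 minus THP-1 (0 also by DESeq2, and 1 at an unadjusted p under 0.05), where 0.193% passed. At that unadjusted p, 14.2% and 9.05% of all genes passed, in the same order. For Molm-14 minus THP-1, 0 passed (0 also by DESeq2 and at an unadjusted p under 0.05), where 0.766% of all genes passed. Without MV4-11 EV replicate 1 the first 2 differences of TWNK passed, at -0.68 (adjusted p = 0.0259) and -0.91 (adjusted p = 0.0463, edgeR). All genes past the test then numbered 379 and 54, against 215 and 28 with every library. The same differences of TWNK also passed without a filter on low counts, at -0.57 (adjusted p = 0.0333) and -0.77 (adjusted p = 0.0457, edgeR), where 339 and 80 of 34732 genes passed.

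Mitochondrial mRNAs were lower in MV4-11 KO. Their sum was 1545, 1358 and 1883 CPM in KO against 2027, 3724 and 3296 CPM in EV, without overlap, at 0.529 times the EV mean (exact permutation p = 0.1, n = 3 against 3, the smallest possible). EV replicates 2 and 3, the highest of the knockout series, also held more mitochondrial reads outside these mRNAs than EV replicate 1 and the KO libraries. What part this had in the fall was not tested. All 13 had a negative log2 fold change, with a median of -0.75 against 0.02 for all genes, and 3 passed the test, where 5.41% of all genes did. These were MT-ND3 (-1.62 ± 0.347, adjusted p = 0.0195), a subunit of complex I, and MT-CO2 (-1.13 ± 0.288, adjusted p = 0.0426) and MT-CO3 (-0.99 ± 0.246, adjusted p = 0.0375), subunits of cytochrome c oxidase. MT-ND5 was nearest to level (-0.38 ± 0.356, adjusted p = 0.573, edgeR). MT-ND3 was at 19.6, 16.2 and 17.3 CPM in KO and at 21.2, 73.9 and 69.5 CPM in EV, so the EV library with the least, replicate 1, lay close to the KO libraries. The number of mRNAs past the test was 7 without EV replicate 1, where 1413 of all 14490 genes passed, against 784 in the fit of all libraries. It was 0 without EV replicate 2, EV replicate 3, KO replicate 1 or KO replicate 2, where 289, 137, 157 and 339 genes passed. It was 5 without KO replicate 3 and 7 with DESeq2, where 864 and 904 genes passed. In the same libraries PECAM1, an endothelial and leukocyte adhesion molecule and the most abundant of the 10 markers of other cell types, was lower in KO (-0.50 ± 0.122, adjusted p = 0.0184, edgeR). The 10 markers summed to 71.3, 62.8 and 70.4 CPM in KO and 68.7, 113.5 and 106.2 CPM in EV. Among the EV libraries replicate 1 was lowest, as for the mitochondrial mRNAs. Most of each sum was PECAM1 itself, while CD3D, CD3E, MS4A1, HBB, PPBP, EPCAM and COL1A1 stayed below 1 CPM in every library. The part of PECAM1 in the result was not tested.

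In Molm-14 the sum of mitochondrial mRNAs was 2175, 1860.3 and 2101 CPM in KO against 1799.9, 2925 and 2113 CPM in EV (0.898 times, exact permutation p = 0.8, n = 3 against 3), and in THP-1 1745, 1886 and 2302 CPM in KO against 1787, 2018 and 3023 CPM in EV (0.869 times, exact permutation p = 0.6, n = 3 against 3). None of the 13 passed the test in either line (0 in each also by DESeq2 and at an unadjusted p under 0.05). The value was negative for 10 of 13 in Molm-14 and 12 of 13 in THP-1, with medians of -0.12 and -0.28 against 0.00 for all genes in both. Values ran from -0.37 ± 0.413 (MT-CYB) to 0.42 ± 0.235 (MT-ND6) in Molm-14 and from -0.46 ± 0.416 (MT-ATP8) to 0.19 ± 0.299 (MT-ND6) in THP-1. With the THP-1 libraries alone and the replicate number as a block, a choice made after the values were seen, 6 of the 13 were lower, where 988 of 14490 genes passed. Among the 6 were MT-CO3 at -0.25 ± 0.0457 (adjusted p = 0.00029) and MT-ND4 at -0.30 ± 0.0619 (adjusted p = 0.00176, edgeR). The difference of the KO effect between lines passed for none of the 13 in edgeR (5, 3 and 0 at an unadjusted p under 0.05 for MV4-11 minus Molm-14, MV4-11 minus THP-1 and Molm-14 minus THP-1), with MT-ND3 at -1.78 ± 0.482 for MV4-11 minus Molm-14 (adjusted p = 0.0994), and for 1, 0 and 0 of them in DESeq2. Of all genes, 14.2%, 9.05% and 7.80% were at that unadjusted p in edgeR, in the same order. DESeq2 called 326, 65 and 138 of all 14490 genes. Without MV4-11 EV replicate 1, 2 of the 13 passed for each of the first 2 differences, where 379 and 54 of all 14490 genes passed.

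Among the 22 further maintenance genes, 2 rose and 1 fell in MV4-11 KO, where 3.17% of all genes rose and 2.24% fell. PRIMPOL, a primase that restarts stalled forks, rose from 27.6 ± 2.32 to 38.8 ± 2.39 CPM (SD, n = 3; 0.49 ± 0.109, adjusted p = 0.0104), and DNA2 rose from 60.4 ± 5.66 to 76.7 ± 6.16 CPM (0.34 ± 0.0952, adjusted p = 0.0351). TOP1MT, the mitochondrial topoisomerase that relaxes the supercoils ahead of TWNK and POLRMT, fell from 129 ± 9.88 to 97.0 ± 2.57 CPM (-0.41 ± 0.0889, adjusted p = 0.00826, edgeR). The median of the 22 was 0.01, against 0.02 for all genes. These calls were not followed with libraries left out, where all genes called went from 784 to as few as 137. In Molm-14 KO, TYMP rose from 19.3 ± 0.522 to 31.1 ± 3.51 CPM (0.69 ± 0.153, adjusted p = 0.00995), the 1 of 22 that passed, where 2.4% of all genes passed, and in THP-1 0 of 22 passed (0 also at an unadjusted p under 0.05 in edgeR). Of the 24 RNA processing genes and 9 tested regulators, 0 passed in any of the 3 lines by edgeR. At an unadjusted p under 0.05, 3 RNA processing genes and 2 regulators passed for MV4-11, 0 of either for Molm-14, and 1 RNA processing gene for THP-1. Of all genes, 22.3%, 10.7% and 8.01% were at that p in MV4-11, Molm-14 and THP-1.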

How the data were processed

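RNA was measured in 30 libraries from a stranded total RNA kit with ribosomal RNA depletion, in 2 tables. After trimming and removal of optical duplicates the authors mapped reads to GRCh38 by two-pass STAR 2.7.6a and deposited whole-number counts per Ensembl gene from featureCounts 1.6.3. The submitters' processing notes also name cutadapt 1.16 and DESeq2 1.30.1. Whether counting used the strand is not given in the sources used here, so overlapping genes may share reads. The tables list different numbers of genes, and no level was compared between them beyond the share and mix of mitochondrial reads. GENCODE release 44 held 60419 of 60675 and 56948 of 58051 gene IDs.

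Counts were fitted per table with edgeR 4.0.16 (R 4.3.3): filterByExpr, TMM factors, the quasi-likelihood test over all libraries of the table, and Benjamini-Hochberg adjustment over all tested genes at 5%. The summed mRNAs were compared by a two-sided exact permutation test over libraries. Fits were tested on simulated data. Replicate pairs differed by 1.50 to 15.8 in chi-square per degree of freedom, so each library counted as 1. A gene at 0 could have a level of up to 3 reads of its library, for counting error only.

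Same-numbered libraries correlated in their deviations from the group means at 0.14 to 0.42 for THP-1 KO and EV, and at -0.52 to 0.38 in the other comparisons, each with a pair below 0.1. The labels name no shared batch, and the main fit used no pairing. THP-1 libraries were paired only in the added fit of that line alone and in the replicate block. The genes and lists were chosen with earlier results of these data known. Named were the 10 genes, MPC1 and MIR133A1HG, the called and extreme mitochondrial mRNAs, up to 3 called genes with the largest change per other list and comparison, and the 3 genes most like TFAM, POLRMT and POLG, of which 1 is not reported here. Alternatives were DESeq2 1.42.0, RLE factors, no low-count filter, mitochondrial genes left out, the replicate block, only the compared groups, and each library left out.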

Additional observations from a re-analysis of the deposited data

Results flagged for a closer look

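TOP1MT, one of the maintenance genes, responded to MPC1 KO differently in 2 lines by the test of the difference itself: the effect in MV4-11 minus that in Molm-14 was -0.50 on the log2 scale (SE 0.126, adjusted p = 0.0383, edgeR). Each KO effect behind it is that line's own, -0.41 in MV4-11 and 0.08 in Molm-14. TOP1MT was the 1 of 22 maintenance genes that passed, where 1.48% of all genes did. For MV4-11 minus THP-1, 0 of 22 passed (3 at an unadjusted p under 0.05, where 9.05% of all genes were, edgeR). The call on TOP1MT was not followed with libraries left out, where all genes called fell from 215 to as few as 113.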

How the results depend on the processing

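The count of members past the test in MV4-11 MPC1 KO was 1 and ranged from 0 to 1 with each library left out. With the replicate number as a block across each table it was 1 in MV4-11 KO, and the block changed no other count of members. Mitochondrial mRNAs past the test in MV4-11 KO went from 3 to 8 with the block, and all genes past it from 784 to 1009. With the THP-1 libraries blocked alone, a choice made after the values were seen, the count of members was 1 in THP-1 KO. For the KO effect in MV4-11 minus that in Molm-14 and in THP-1, the count of 0 became 1 in each without a filter on low counts, and ranged from 0 to 1 with each library left out. The log2 ratio of summed mitochondrial mRNA in THP-1 against MV4-11 EV was -0.41, and 0.022 as a mean of log2 values, where each mRNA weighs alike. It ranged from -0.66 to -0.23 with each library left out. Members past the test in THP-1 against MV4-11 EV stayed at 6 to 8 in total, with 5 lower throughout and 1 to 3 higher. The other total counts of members stayed within 1.5 times, and the other ratios within the spread between libraries, under the alternatives run. Precision is limited by 3 libraries a group, and for MT-ATP8 and MT-ND6 in the knockout series also by depth, with as few as 17 counts in a library.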
